A study of Mus musculus with 42 samples.

Results

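Stellate/Basket cells, the inhibitory interneurons of the cerebellar molecular layer, were compared between postnatal day 21 (P21) and postnatal day 14 (P14), over all genes of the array. The members were chosen by their labels: 3 arrays titled Stellate/Basket P21 and 4 titled Stellate/Basket P14, which make 7 of the 42 deposited columns. Expression was measured on the Affymetrix MOE430.2 array in cells picked by hand from cerebellar slices of male mice of the CB6-Tg(Gad1-EGFP)G42Zjh/J strain, which carry a Gad67-GFP bac transgene. Both ages share strain, transgene, tissue, stated sex and sort. They differ by age, and each of the 2 groups is otherwise untreated. The green fluorescent protein is driven by the Gad1 (Gad67) locus, which all GABAergic neurons use, so the sort separated Stellate/Basket from Purkinje cells by soma size as well as by fluorescence. Slices were held in blockers of glutamate receptors and sodium channels (AP5, CNQX and TTX), and the polyadenylated RNA was amplified before labelling. Purkinje cells at P21 (4 arrays) and P14 (3 arrays) and Stellate/Basket cells at P28 (4 arrays), picked the same way from the same strain, are used for comparison. The labels call the replicates biological, and how many animals stand behind each array was not given in the sources used here.

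Stellate and basket cells are born late, migrate into the molecular layer, and form GABA and glycine receptor-bearing circuits that inhibit Purkinje cells. Basket axons wrap the Purkinje cell soma and initial segment, while stellate axons contact dendrites. In the same layer, Bergmann glia, a radial kind of astrocyte, ensheath these synapses, take up glutamate and potassium, and are joined by gap junctions. Immature neurons carry cytoskeletal and growth cone proteins, such as doublecortin and GAP-43, whose genes are turned down as axons and synapses mature. Glial and neuronal transcripts are therefore given apart below.

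The authors deposited normalized log2 values. Each gene stands for 1 probe set, the one that averaged highest, and 17478 genes entered the fit. A difference is the mean log2 value at P21 minus that at P14, so 1 unit is a doubling, and it is followed by its standard error (SE) and by the Benjamini-Hochberg adjusted p of limma over all genes tested. A gene was called when this p was under 0.05 and the difference was at least 1 in size. Errors of group means are standard deviations (SD, n = 3 at P21 and n = 4 at P14). No detection calls came with the values, so a difference against a level near the bottom of the scale, at about 4 to 6, is uncertain, and 54 of the 184 genes called higher had a P14 mean under 6. Such values are from bulk samples, in which fewer cells of a type and less RNA per cell cannot be told apart.

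The label was checked against its markers first. Gad1, the enzyme that makes GABA, was at 12.60, 12.74 and 12.64 in the P21 arrays, against 12.53, 12.31, 12.27 and 12.41 in the P14 arrays, a difference of 0.28 ± 0.14 (adjusted p = 0.349). Kit, a receptor kinase that marks molecular layer interneurons, was at 10.27, 10.93 and 10.97 in the P21 arrays, against 10.93, 10.33, 10.21 and 10.48 in the P14 arrays, a difference of 0.23 ± 0.27 (adjusted p = 0.76). Both genes were high in every array, and the mean of the 11 Stellate/Basket cell markers was 10.74 ± 0.14 at P21 and 10.89 ± 0.18 at P14. The cells were picked by fluorescence driven from Gad1, so its high level follows from the sort. It also does not separate the cell types: Purkinje cells averaged 12.38 at P21 and 12.2 at P14. Kit averaged 5.30 and 5.55 in those Purkinje groups. The stated sex and the sex-linked genes went apart: Xist, the transcript of the inactive X chromosome of females, was at 12.80, 12.75 and 12.93 in the P21 arrays, against 12.83, 12.81, 12.88 and 12.77 in the P14 arrays, and Eif2s3y, a Y-linked gene, was at 4.28, 4.22 and 4.29 in the P21 arrays, against 4.21, 4.27, 4.17 and 4.21 in the P14 arrays. All 7 arrays are labelled male and all 7 had high Xist and low Eif2s3y, equally at both ages. With Xist as a covariate, 60 of the 61 called genes that are named by the rule used here were still called, and Sqle was not. Xist differed by 0.002 between these ages, so this covariate could hardly move the differences. The fit therefore cannot show whether the mismatch of sex and label matters for the calls.

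Other cells' markers did not stay level. The mean of 19 astrocyte and Bergmann glia markers was 9.42, 9.05 and 9.48 in the P21 arrays, against 6.78, 6.71, 7.79 and 7.44 in the P14 arrays. All P21 arrays stood above all P14 arrays, and P14 replicates 3 and 4 stood above replicates 1 and 2. The mean of 11 Purkinje cell markers was 9.10, 9.70 and 10.39 in the P21 arrays, against 9.32, 9.12, 7.97 and 8.41 in the P14 arrays. Here the ages overlapped, with P21 replicate 3 highest and P14 replicate 3 lowest. These means move with the age comparison, and their part in each result below was not tested beyond fits that hold them constant. Such fits used as covariates the astrocyte marker mean of each array, its Purkinje marker mean, or both. They take the slope on the marker mean from the spread within groups, shared between the cell types, and the Purkinje covariate was added after the data were seen. Each marker is part of its own list's mean, so these fits cannot test the markers themselves.

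**Figure D1:**
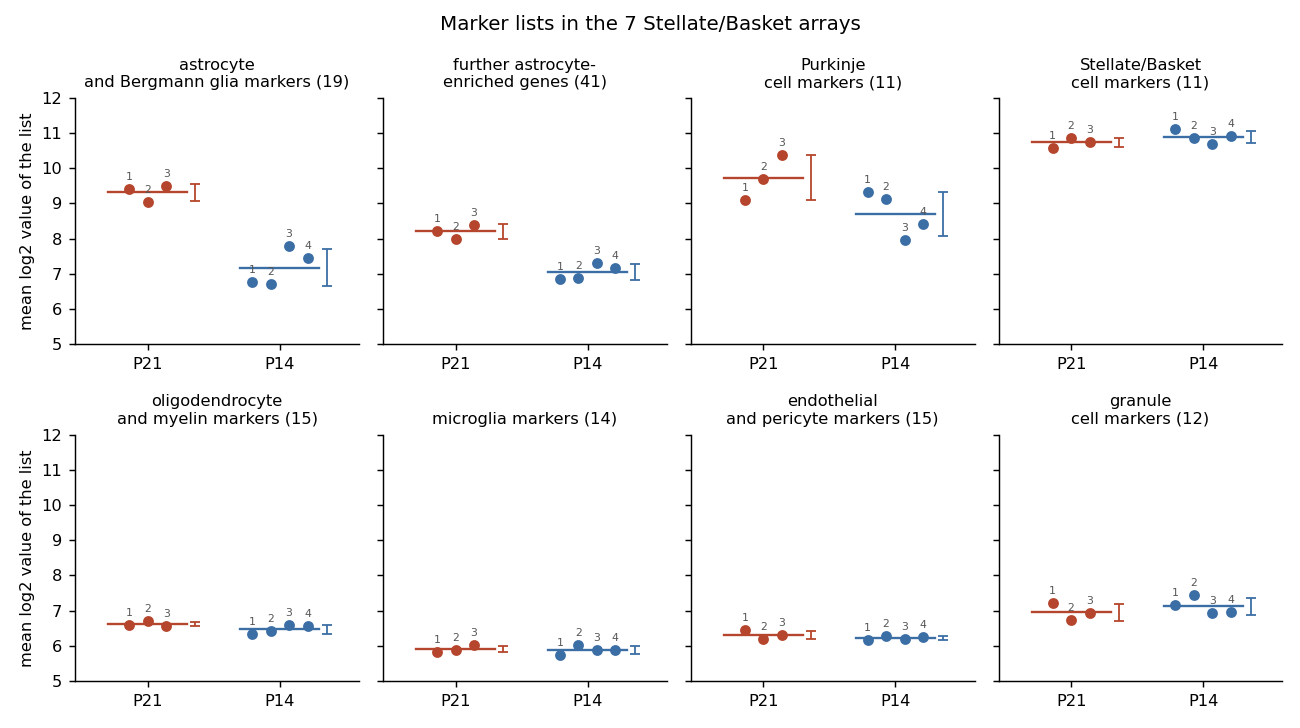
Mean log2 value of 8 marker lists in each Stellate/Basket array, P21 left of P14, with the number of genes tested in brackets. Points are arrays numbered by replicate, lines are group means and bars are ± 1 SD (n = 3 and 4). The astrocyte lists are higher in every P21 array, the Purkinje markers overlap between ages, and the other lists lie at nearly the same level at both ages.

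Over all genes, 184 were higher at P21 (1.05% of 17478) and 125 were lower (0.715%). Of these, 176 higher and 120 lower genes had arrays of the ages that did not overlap. Over all genes, 9.66% had every P21 array above every P14 array and 11.3% had the reverse. The calls rest on these same arrays and favour genes whose ages lie apart, so the lack of overlap is no separate support for them. The larger changes were mostly upward: 57 genes were higher by at least 2 log2 units and 9 were lower by as much. Among the 95 genes of the glial lists, 31 were higher (32.6%) and 0 were lower by limma, 1 of them lower at an unadjusted p under 0.05, and over all classes 2765 genes had an unadjusted limma p under 0.05. Among the 270 genes of the neuronal lists, 8 were higher (2.96%) and 14 were lower (5.19%), and among 181 genes of general lists 4 were higher and 5 lower. A further 2 higher genes belonged to the Purkinje marker list, and 139 higher and 106 lower genes stood in no list. The median difference over all genes was -0.01. The number of lower genes depended on P21 replicate 3: without it, 82 genes were lower and 153 higher.

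**Figure D2:**
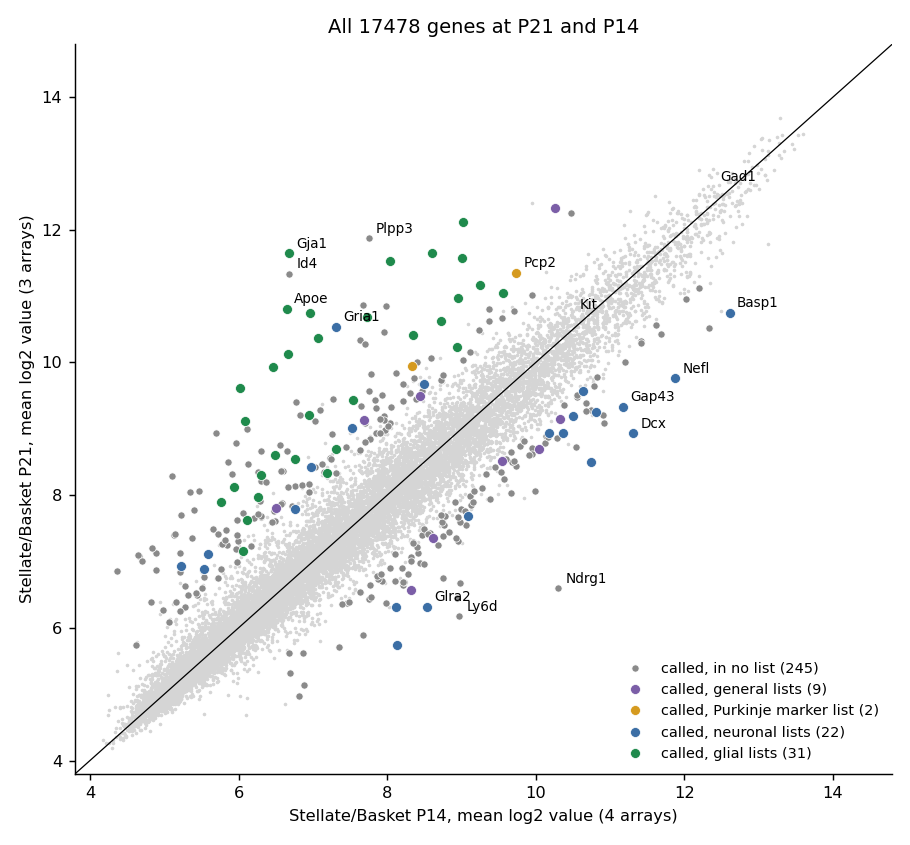
Mean log2 value of each of 17478 genes in Stellate/Basket cells at P21 (vertical axis, 3 arrays) against P14 (horizontal axis, 4 arrays), with the line of equality. Called genes are coloured by list class, with their number in brackets. The 31 glial genes lie above the line, and 14 of the 22 neuronal genes lie below it.

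With the astrocyte marker mean as a covariate, 41 of the 184 higher genes and 42 of the 125 lower genes were still called. Of the 31 higher glial genes 2 were, of the 8 higher neuronal genes 0 were, and of the 14 lower neuronal genes 6 were. Of those 31 glial genes, 14 are themselves part of the astrocyte marker mean. With the Purkinje marker mean, 125 of the 184 higher and 73 of the 125 lower genes were still called, and with both means 17 and 25 were. Of the 61 called genes named by the rule, 19 were still called with the astrocyte covariate: Adamts4, Aldoc, Bhlhe40, Clmn, Dcx, Dhcr7, Efhd2, Ephb1, Erdr1, Gap43, Glra2, Id4, Insm1, Isoc1, Klf7, Ly6d, Ndrg1, Scn3b and Sox11. With both covariates 12 were, which leaves out Aldoc, Dhcr7, Ephb1, Id4, Isoc1, Scn3b and Sox11. With the mean of a gene's probe sets in place of the brightest one, 17 of the 61 were not called: Bcl11a, Cacna1e, Cacnb4, Clmn, Dcx, Enc1, Fdft1, Gabrg1, Gng13, Insm1, Isoc1, Nlgn1, Nrcam, Pcp2, Scn3b, Sema6d and Stx1a. Beside this, 42 of the 184 higher genes had a Purkinje cell mean at P21 above the Stellate/Basket mean at P21, against 10180 of all 17478 genes. In the neuronal lists 5 of the 8 higher genes did, against 103 of the 270 tested. These 5 were Bcl11a, Cacnb4, Gria1, Scn4b and Unc5d.

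The glial transcripts led the upward changes. In the list of astrocyte and Bergmann glia markers 14 of 19 were higher and 0 lower, beside 1.05% and 0.715% of all genes, with a median difference of 2.02. Gja1 encodes connexin 43, the main gap junction channel of astrocytes. Its values were 11.95, 11.59 and 11.41 in the P21 arrays, against 5.29, 4.96, 9.25 and 7.23 in the P14 arrays, a difference of 4.97 ± 1.03 (adjusted p = 0.003), or 31.4-fold. P14 replicate 3 was the nearest to the P21 level and P14 replicates 1 and 2 lay near the bottom of the scale. Apoe, a lipid carrier that astrocytes secrete, was at 10.76, 9.98 and 11.69 in the P21 arrays, against 6.16, 6.08, 7.39 and 6.97 in the P14 arrays, a difference of 4.16 ± 0.65 (adjusted p = 0.000108). Aqp4, the astrocytic water channel, was at 9.37, 9.83 and 9.65 in the P21 arrays, against 5.26, 5.23, 7.03 and 6.52 in the P14 arrays, a difference of 3.60 ± 0.51 (adjusted p = 2.88e-05). In all 3 genes the ages did not overlap, and P14 replicates 3 and 4 were above P14 replicates 1 and 2.

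Further markers of this list serve glutamate handling and secretion. Slc1a3, the glutamate transporter GLAST of Bergmann glia, was at 11.72, 11.45 and 11.79 in the P21 arrays, against 8.06, 7.89, 9.72 and 8.77 in the P14 arrays, a difference of 3.04 ± 0.44 (adjusted p = 3.6e-05). Glul, glutamine synthetase, rose by 2.02 ± 0.31 (adjusted p = 7.14e-05), and S100b, a calcium-binding protein, by 2.27 ± 0.35 (adjusted p = 0.000104). Hopx, a homeodomain-only protein, was already high at P14 (11.17 ± 0.35 at P21 and 9.24 ± 0.49 at P14) and rose by 1.93 ± 0.21 (adjusted p = 4.11e-07). Gdf10, a growth factor of the bone morphogenetic protein family found in Bergmann glia, rose by 3.30 ± 0.75 (adjusted p = 0.00745). Timp4, an inhibitor of metalloproteinases, was higher by 3.49 ± 0.87 (adjusted p = 0.0166), but its call was lost without P21 replicate 1 (adjusted p = 0.0545), P21 replicate 3 (0.0849), P14 replicate 1 (0.065) or P14 replicate 2 (0.0576), each p adjusted in the same way. Gfap, the intermediate filament of astrocytes, was at 6.68 ± 0.11 at P21 and 6.75 ± 0.15 at P14, low on the scale at both ages.

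A further list of 41 astrocyte-enriched genes had 17 higher and 0 lower members, beside 1.05% and 0.715% of all genes, with a median of 0.89. Kcnj10 encodes Kir4.1, the channel through which astrocytes take up potassium. It was at 10.26, 9.80 and 10.29 in the P21 arrays, against 6.20, 5.83, 7.27 and 7.38 in the P14 arrays, a difference of 3.45 ± 0.42 (adjusted p = 1.78e-06). Itih3, which binds hyaluronan in the matrix, was at 10.57, 9.55 and 9.68 in the P21 arrays, against 6.17, 5.70, 7.85 and 6.12 in the P14 arrays, a difference of 3.47 ± 0.49 (adjusted p = 2.25e-05). Gpr37l1, an orphan receptor of astrocytes, rose by 2.96 ± 0.41 (adjusted p = 1.61e-05), and Sparcl1, a secreted matrix protein, by 2.58 ± 0.46 (adjusted p = 0.000589). Each of these 4 genes separated the ages completely. Gpr37l1 was also high in Purkinje cells, at 10.94 ± 0.35 at P21 and 11.01 ± 0.16 at P14 (SD, n = 4 and 3). In Stellate/Basket cells it averaged 10.68 at P21.

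Metallothioneins, small proteins that bind zinc and copper, are made by astrocytes and switched on by metal through the factor MTF-1, which binds metal response elements. Their genes lie side by side within 27.7 kb of chromosome 8, and the promoters of Mt1, Mt2 and Mt3 are shown because Mt1 and Mt2 rose and Mt3, the brain form, was not called. The sequences are from RefSeq (GRCm38.p6, plus strand, 250 bases before to 50 after the gene start), and capitals mark matches to TGCACNC or TGCGCNC on either strand.
Mt1 promoter, chr8:94178839-94179138: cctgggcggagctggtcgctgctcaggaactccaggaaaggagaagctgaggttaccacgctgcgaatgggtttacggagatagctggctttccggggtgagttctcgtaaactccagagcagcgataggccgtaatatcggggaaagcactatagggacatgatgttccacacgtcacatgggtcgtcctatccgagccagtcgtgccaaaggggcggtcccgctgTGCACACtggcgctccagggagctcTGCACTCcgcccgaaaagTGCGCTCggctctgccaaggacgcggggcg
Mt2 promoter, chr8:94172368-94172667: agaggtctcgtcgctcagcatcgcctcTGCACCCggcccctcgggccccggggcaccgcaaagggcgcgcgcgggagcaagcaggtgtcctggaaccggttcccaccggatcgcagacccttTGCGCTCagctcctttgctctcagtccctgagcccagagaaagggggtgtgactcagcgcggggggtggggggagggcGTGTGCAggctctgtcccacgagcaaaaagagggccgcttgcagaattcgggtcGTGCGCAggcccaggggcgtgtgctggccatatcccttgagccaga
Mt3 promoter, chr8:94152357-94152656: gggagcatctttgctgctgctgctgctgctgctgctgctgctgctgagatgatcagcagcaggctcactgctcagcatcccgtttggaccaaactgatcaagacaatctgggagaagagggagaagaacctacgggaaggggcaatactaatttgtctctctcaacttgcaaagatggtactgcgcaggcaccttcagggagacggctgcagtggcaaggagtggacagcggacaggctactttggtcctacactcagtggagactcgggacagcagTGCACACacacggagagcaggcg
These windows held 3 matches for Mt1, 4 for Mt2 and 1 for Mt3. Of 32851 promoters of this length, 25.7% held at least 1 match, 1.97% at least 3 and 0.517% at least 4. A match is a description of the letters, and binding was not measured. Mt1 was at 10.35, 10.51 and 11.35 in the P21 arrays, against 6.12, 6.30, 7.66 and 7.77 in the P14 arrays, a difference of 3.78 ± 0.50 (adjusted p = 9.6e-06). Mt2 was at 11.66, 11.97 and 12.71 in the P21 arrays, against 8.41, 8.50, 9.95 and 9.22 in the P14 arrays, a difference of 3.10 ± 0.46 (adjusted p = 5.7e-05). Mt3 was at 7.35, 7.53 and 7.90 in the P21 arrays, against 7.28, 7.09, 7.16 and 7.61 in the P14 arrays, a difference of 0.31 ± 0.22 (adjusted p = 0.545). The ages did not overlap for Mt1 and Mt2, and they overlapped for Mt3. With the astrocyte marker mean as a covariate the difference of Mt2 was -0.06, and that of Mt1 was 0.38 (adjusted p = 0.678 by limma).

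Many of the other large upward changes were in genes of no list, which were not sorted here into glial or neuronal ones. Id4, an inhibitor of helix-loop-helix transcription factors, was at 11.13, 11.50 and 11.39 in the P21 arrays, against 5.31, 5.71, 9.04 and 6.68 in the P14 arrays, a difference of 4.66 ± 0.51 (adjusted p = 3.06e-07). P14 replicate 3 lay between the other P14 arrays and the P21 arrays. Purkinje cells held Id4 at 11.40 ± 0.30 at P21 and 12.23 ± 0.07 at P14 (SD, n = 4 and 3). Plpp3, which dephosphorylates signalling lipids, rose by 4.11 ± 0.77 (adjusted p = 0.00112), and Ednrb, the endothelin B receptor, by 3.19 ± 0.52 (adjusted p = 0.000176). Aldh1a1, an enzyme of retinoic acid synthesis, was at 7.91, 9.09 and 9.82 in the P21 arrays, against 5.28, 5.34, 5.48 and 6.70 in the P14 arrays, a difference of 3.24 ± 0.41 (adjusted p = 4.31e-06). Mgst1, a membrane-bound glutathione transferase, rose by 3.18 ± 0.42 (adjusted p = 9.41e-06), and Gas1, a membrane protein that binds hedgehog ligands, by 2.86 ± 0.30 (adjusted p = 2.07e-07). Efhd2, a calcium-binding protein, rose by 2.70 ± 0.30 (adjusted p = 5.5e-07). In Id4, Plpp3, Ednrb, Aldh1a1 and Gas1, P14 replicates 3 and 4 stood above replicates 1 and 2, as in the astrocyte marker mean. In Mgst1 and Efhd2 they did not. Which cells carried these transcripts was not tested. With the astrocyte covariate the differences of Gja1 (-1.31), Plpp3 (-1.25), Gdf10 (-1.32), Timp4 (-2.67), Ednrb (-0.15) and Apoe (-0.08) turned below 0, while Id4 (3.16, adjusted p = 0.035) and Efhd2 were still called as higher. Gja1, Gdf10, Timp4 and Apoe are part of that covariate, so their own rise is largely taken out by design. Aldh1a1 (1.80, adjusted p = 0.139), Mgst1 (1.44, adjusted p = 0.237) and Gas1 (1.47, adjusted p = 0.054) were not called in that fit. With both covariates Id4 was at 3.02 and was not called (adjusted p = 0.139 by limma).

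Markers of other glial and vascular cells gave 0 calls with limma, beside the same background of 1.05% higher and 0.715% lower, which gives few calls in lists of this size. These were 15 oligodendrocyte and myelin markers (median 0.11, 2 with an unadjusted p under 0.05), 6 oligodendrocyte precursor markers (-0.05, 0 with such a p), 14 microglia markers (0.04, 0 with such a p) and 15 endothelial and pericyte markers (0.04, 1 with such a p). Mbp, a main protein of myelin, was at 8.07 ± 0.19 at P21 and 8.35 ± 0.28 at P14, and Cnp, a myelin enzyme, was at 10.99 ± 0.15 at P21 and 10.21 ± 0.76 at P14. The microglial receptor gene Cx3cr1 was at 6.11 ± 0.05 at P21 and 6.02 ± 0.10 at P14, and the endothelial Pecam1 was at 5.07 ± 0.09 at P21 and 5.08 ± 0.07 at P14, both low on the scale. Granule cell markers (12 genes, median -0.09) and Golgi and unipolar brush cell markers (7 genes, median -0.10) had 0 called members in limma as well, with 4 and 2 unadjusted p under 0.05. Across the 95 glial genes, the 31 called members all came from the 2 astrocyte lists.

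Purkinje markers were mostly higher at P21, by an amount that depended on single arrays. Of the 11 markers 10 had differences above 0, and 7 had an unadjusted limma p under 0.05, all of them higher. Over all 17478 genes, 2765 had such a p. Pcp2, a Purkinje cell protein that binds G proteins, was at 10.54, 11.23 and 12.27 in the P21 arrays, against 10.71, 10.29, 8.49 and 9.45 in the P14 arrays, a difference of 1.61 ± 0.47 (adjusted p = 0.0457). Calb1, the calcium buffer calbindin, was at 7.89, 9.35 and 10.89 in the P21 arrays, against 8.79, 8.19, 5.55 and 5.94 in the P14 arrays, a difference of 2.26 ± 0.94 (adjusted p = 0.205). Gng13, a G protein gamma subunit, rose by 1.60 ± 0.39 (adjusted p = 0.0122). In all 3 genes the ages overlapped, with P21 replicate 3 highest and P14 replicates 3 and 4 lowest. Without P21 replicate 3 the difference of Pcp2 was 1.15 (adjusted p = 0.326) and that of Gng13 was 1.23 (0.141). Both calls were also lost without P14 replicate 3 (adjusted p = 0.208 and 0.0665), and that of Pcp2 without P21 replicate 2 (0.09) or P14 replicate 4 (0.115), by limma with the same adjustment. The median of the 11 markers was 1.25, and it was 0.79 without P21 replicate 3. With each array left out in turn it ran from 0.79 to 1.53.

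Of the 22 called genes of the neuronal lists, 14 were lower and 8 higher, and those of growing neurites are given first. Of 31 neurite growth and immature neuron genes 0 were higher and 5 were lower, with a median of -0.60, beside 1.05% and 0.715% of all genes. In 19 of the 31 every P14 array stood above every P21 array, against 11.3% of all genes. Dcx encodes doublecortin, a microtubule-binding protein of migrating neurons. It was at 9.01, 9.13 and 8.64 in the P21 arrays, against 11.16, 11.18, 11.74 and 11.17 in the P14 arrays, a difference of -2.38 ± 0.29 (adjusted p = 1.78e-06). Sox11, a transcription factor of newly made neurons, was at 8.68, 8.66 and 8.16 in the P21 arrays, against 11.02, 10.55, 10.97 and 10.44 in the P14 arrays, a difference of -2.25 ± 0.39 (adjusted p = 0.000398). Gap43, a growth cone protein, was at 9.24, 9.35 and 9.40 in the P21 arrays, against 11.23, 11.27, 11.33 and 10.84 in the P14 arrays, a difference of -1.84 ± 0.18 (adjusted p = 1.03e-07). The P21 arrays lay close together and below the P14 arrays in each of these genes. The value of Dcx is that of its brightest probe set. Its other 3 probe sets were at 0.16, -0.42 and 0.14, and with the mean of its probe sets the difference was -0.62, which was not called.

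Basp1, another membrane protein of growth cones, was at 10.91, 10.92 and 10.41 in the P21 arrays, against 12.48, 12.56, 12.59 and 12.80 in the P14 arrays, a difference of -1.86 ± 0.45 (adjusted p = 0.0127). It was not called without P21 replicate 3 (-1.69, adjusted p = 0.085 by limma). Dpysl3, a cytosolic protein of the collapsin response family, fell by 1.55 ± 0.35 (adjusted p = 0.00666). Other members kept to smaller differences that were not called: Marcksl1 (-1.13, adjusted p = 0.0924), Map1b (-0.79, adjusted p = 0.323), Sox4 (-0.64, adjusted p = 0.0924), Tubb3 (-0.50, adjusted p = 0.467) and Tuba1a (-0.15, adjusted p = 0.674). Stmn2, another microtubule regulator, was at 9.66 ± 0.47 at P21 and 10.66 ± 0.19 at P14 and was not called (adjusted p = 0.065). With the astrocyte covariate the median of the list was -0.86, with the Purkinje covariate -0.69 and with both -0.92. Of the 5 called genes, Dcx and Gap43 remained called as lower in all 3 of these fits. Basp1 (-0.79, adjusted p = 0.664) and Dpysl3 (-1.36, adjusted p = 0.264) were not called with the astrocyte covariate by limma. With both covariates Basp1 (-0.92), Dpysl3 (-1.47) and Sox11 (-2.40, adjusted p = 0.154) were not called.

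**Figure D3:**
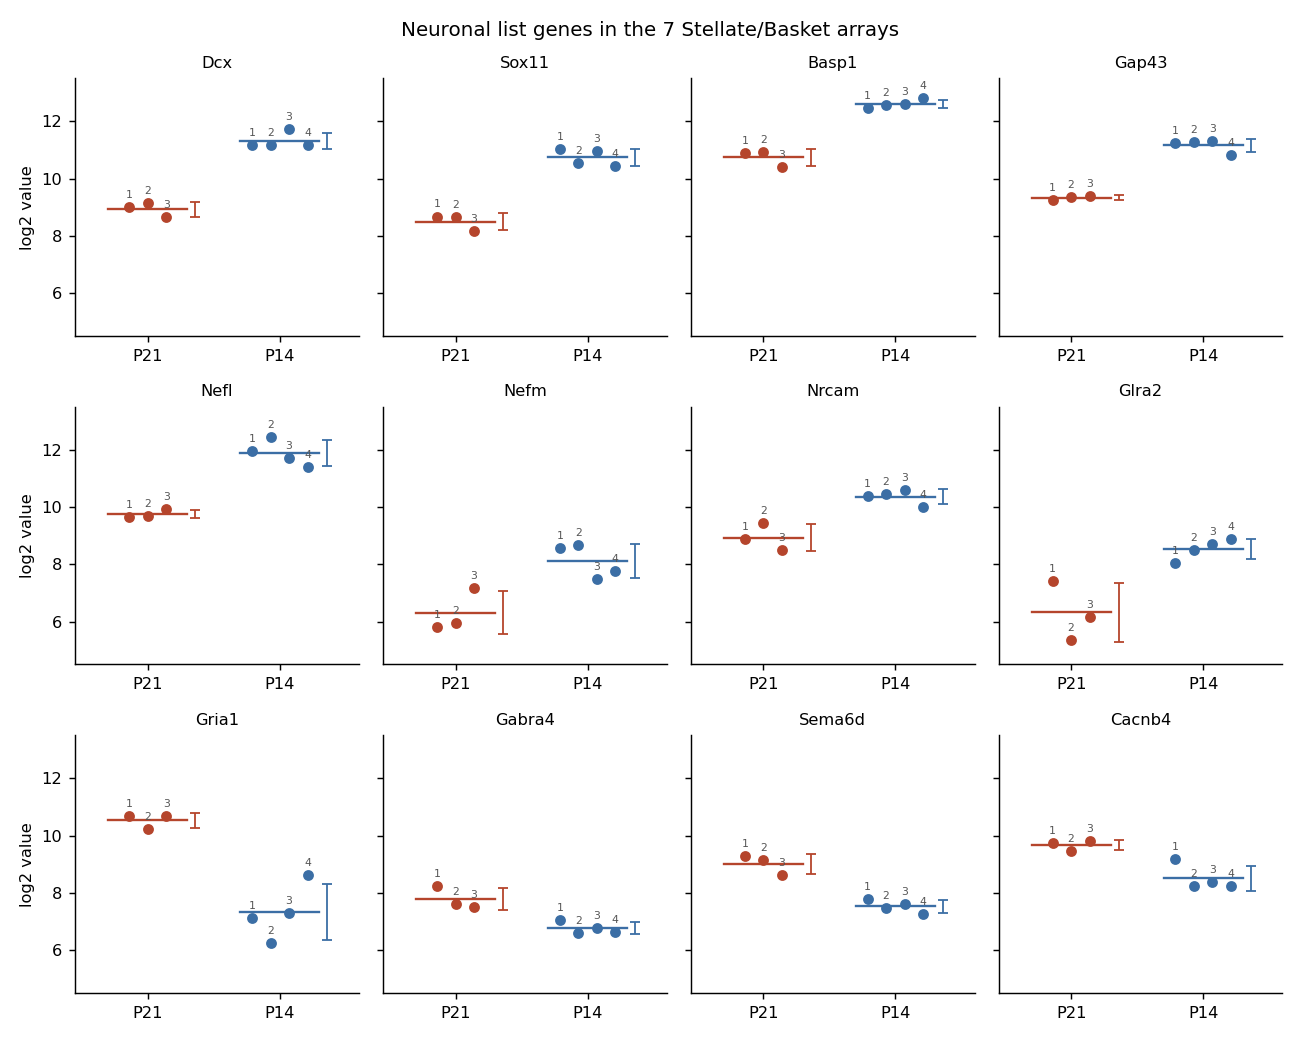
Log2 values of 12 neuronal list genes in each Stellate/Basket array, P21 left of P14. Points are arrays numbered by replicate, lines are group means and bars are ± 1 SD (n = 3 and 4). The 8 genes from Dcx to Glra2 are lower and the 4 genes from Gria1 to Cacnb4 are higher in every P21 array than in every P14 array.

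Of 15 neurofilament and axon initial segment genes, 3 were lower and 1 was higher, beside 0.715% and 1.05% of all genes. Nefl, the light subunit of neurofilaments, was at 9.66, 9.69 and 9.94 in the P21 arrays, against 11.96, 12.46, 11.73 and 11.39 in the P14 arrays, a difference of -2.12 ± 0.30 (adjusted p = 2.72e-05). Nefm, the medium subunit, was at 5.80, 5.96 and 7.18 in the P21 arrays, against 8.58, 8.67, 7.49 and 7.76 in the P14 arrays, a difference of -1.81 ± 0.43 (adjusted p = 0.0118). Nrcam, an adhesion molecule of initial segments and nodes, fell by 1.43 ± 0.35 (adjusted p = 0.0127). The ages did not overlap in these 3 genes, although Nefm at P21 replicate 3 came within a short distance of P14 replicate 3. The call of Nefm was lost without P21 replicate 1 (adjusted p = 0.0872) or P21 replicate 2 (0.0654), and that of Nrcam without P21 replicate 3 (0.11). The higher gene was Bcl11a, a zinc finger repressor, at 7.12 ± 0.79 at P21 and 5.59 ± 0.29 at P14, a difference of 1.52 ± 0.41 (adjusted p = 0.028). Its call was lost without P21 replicate 1 (adjusted p = 0.0819), P21 replicate 3 (0.241), P14 replicate 1 (0.0651) or P14 replicate 2 (0.0802).

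Receptor genes of inhibitory synapses changed subunit by subunit. Glra2, the glycine receptor subunit of immature neurons, was at 7.43, 5.36 and 6.17 in the P21 arrays, against 8.06, 8.50, 8.71 and 8.89 in the P14 arrays, a difference of -2.22 ± 0.28 (adjusted p = 5.24e-06). P21 replicate 1 stood closest to the P14 arrays. Gabra4, a GABA-A receptor alpha subunit, was at 8.24, 7.62 and 7.49 in the P21 arrays, against 7.05, 6.60, 6.75 and 6.62 in the P14 arrays, a difference of 1.03 ± 0.20 (adjusted p = 0.00164). Its difference was under 1 without P21 replicate 1 (0.80), P14 replicate 2 (0.98) or P14 replicate 4 (0.98). Gabrg1, a gamma subunit that Bergmann glia also carry, was at 6.93 ± 0.02 at P21 and 5.23 ± 0.10 at P14, a difference of 1.71 ± 0.40 (adjusted p = 0.00989). The other 13 of the 16 genes tested in this list were not called, and the list median was 0.04. Over all genes 1.05% were called higher and 0.715% lower.

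Among 24 glutamate receptor genes Gria1 was the only one called. It encodes an AMPA receptor subunit, which Bergmann glia carry as well, and was at 10.69, 10.24 and 10.69 in the P21 arrays, against 7.11, 6.24, 7.28 and 8.61 in the P14 arrays, a difference of 3.23 ± 0.39 (adjusted p = 2.17e-06). P14 replicate 4 was the highest of the P14 arrays and still below every P21 array. Purkinje cells held Gria1 at 11.33 ± 0.57 at P21 and 10.91 ± 0.31 at P14 (SD, n = 4 and 3). With the astrocyte covariate Gria1 was not called, and with the Purkinje covariate it was. Grid1, a delta glutamate receptor gene, missed the size limit at 0.96 ± 0.26 (adjusted p = 0.0299).

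The sodium, calcium and potassium channel lists gave 2, 2 and 0 calls of 12, 13 and 35 genes tested, beside 1.05% of all genes called higher and 0.715% called lower. Scn3b, a sodium channel beta subunit, fell by 1.40 ± 0.28 (adjusted p = 0.00206), among 12 sodium channel genes tested. Scn4b, another beta subunit that Purkinje cells carry, was at 6.35, 6.37 and 7.96 in the P21 arrays, against 5.49, 5.90, 5.54 and 5.19 in the P14 arrays, a difference of 1.36 ± 0.30 (adjusted p = 0.00504), and was not called without P21 replicate 3 (0.83, adjusted p = 0.12). Of 13 calcium channel genes, Cacnb4, a beta subunit, was at 9.76, 9.47 and 9.80 in the P21 arrays, against 9.16, 8.23, 8.38 and 8.23 in the P14 arrays, a difference of 1.18 ± 0.25 (adjusted p = 0.00387). Cacna1e, the R-type channel, fell by 1.06 ± 0.25 (adjusted p = 0.0111), and its call was lost without P21 replicate 3 (-0.86, adjusted p = 0.113) and, by the size limit alone, without P14 replicate 3. None of 35 potassium and HCN channel genes was called by limma, with a median near 0 and 2 unadjusted p under 0.05. The largest differences in that list were those of Kcnj9 (1.65, adjusted p = 0.328) and Kcnab1 (1.31, adjusted p = 0.0934).

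The synaptic release list gave 1 call of 33 genes and the axon guidance list 3 of 48, beside 1.05% of all genes called higher and 0.715% called lower. Stx1a, a syntaxin of the vesicle fusion machinery, fell by 1.32 ± 0.30 (adjusted p = 0.0071), the 1 call among 33 release genes, and was lost without P21 replicate 3 (-1.03, adjusted p = 0.097). Among 48 axon guidance genes, Sema6d, a semaphorin, was at 9.30, 9.13 and 8.63 in the P21 arrays, against 7.80, 7.47, 7.60 and 7.26 in the P14 arrays, a difference of 1.49 ± 0.27 (adjusted p = 0.000613). Unc5d, a netrin receptor gene, rose by 1.45 ± 0.38 (adjusted p = 0.0236), but was not called without P21 replicate 1, P21 replicate 3, P14 replicate 1, P14 replicate 2 or P14 replicate 3, with adjusted p from 0.0553 to 0.175. Ephb1, an ephrin receptor, was at 9.20, 8.74 and 8.86 in the P21 arrays, against 10.94, 9.71, 10.42 and 9.66 in the P14 arrays, a difference of -1.25 ± 0.22 (adjusted p = 0.000591). Without P14 replicate 1 it was just short of the size limit and was not called. Nlgn1, a neuroligin of excitatory synapses that stood in no list, was at 6.90, 7.03 and 6.33 in the P21 arrays, against 8.98, 8.61, 9.12 and 8.29 in the P14 arrays, which is 3.99-fold lower at P21 (adjusted p = 4.07e-05). Nxph1, a secreted ligand of neurexins and the 1 called gene of 11 Stellate/Basket markers, was at 6.19, 5.08 and 5.96 in the P21 arrays, against 8.87, 7.54, 8.61 and 7.53 in the P14 arrays, a difference of -2.39 ± 0.48 (adjusted p = 0.0025). Nxph1 and Stx1a were not called in a fit of the Stellate/Basket arrays alone.

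Genes of inhibitory identity gave 0 calls with limma, beside 1.05% of all genes called higher and 0.715% called lower, which gives few calls in lists of this size. They were 8 genes of GABA synthesis and transport (median 0.10, 1 with an unadjusted p under 0.05), 21 interneuron lineage transcription factors (median -0.30, 10 with such a p, 8 of them lower) and 7 endocannabinoid genes (median 0.06, 0 with such a p). Over all 17478 genes, 2765 had such a p. The transcription factors thus leaned downward: in 8 of the 21 every P14 array stood above every P21 array, against 11.3% of all genes. Slc32a1, the vesicular GABA transporter, was at 12.72 ± 0.11 at P21 and 12.59 ± 0.07 at P14. Pvalb, parvalbumin, was at 13.38 ± 0.28 at P21 and 13.05 ± 0.36 at P14, and Cnr1, the cannabinoid receptor of basket axons, was at 12.06 ± 0.34 at P21 and 11.45 ± 0.39 at P14. Nos1, neuronal nitric oxide synthase, missed the size limit at 0.94 ± 0.25 (adjusted p = 0.0287), and Zic5, a zinc finger factor, likewise at -0.99 ± 0.20 (adjusted p = 0.00215).

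Further lower genes outside the lists included regulators and surface proteins. Ndrg1, a stress-responsive gene, had the largest fall of all genes tested, at 7.20, 6.43 and 6.17 in the P21 arrays, against 10.31, 9.62, 11.08 and 10.19 in the P14 arrays, a difference of -3.70 ± 0.40 (adjusted p = 2.62e-07). Ly6d, a lipid-anchored surface protein, was at 6.08, 6.08 and 6.36 in the P21 arrays, against 9.75, 8.94, 8.63 and 8.54 in the P14 arrays, a difference of -2.79 ± 0.21 (adjusted p = 2.84e-10). Isoc1, an isochorismatase domain protein, was at 6.64, 6.40 and 6.30 in the P21 arrays, against 8.42, 9.34, 9.69 and 8.29 in the P14 arrays, a difference of -2.49 ± 0.33 (adjusted p = 1.03e-05). In all 3 genes the P21 arrays lay below the P14 arrays. For Isoc1 this rests on 1 probe set: another, as bright in these arrays, was at -0.19, a dimmer one was at 0.29, and with the mean of its probe sets the difference was -0.63, which was not called. Klf7, a Kruppel-like factor of axon growth, fell by 1.93 ± 0.20 (adjusted p = 1.39e-07), and Insm1, a zinc finger factor of neuronal progenitors, fell by 1.84 ± 0.34 (adjusted p = 0.00077). Enc1, a kelch protein that binds actin, fell by 1.82 ± 0.31 (adjusted p = 0.000288), Rbfox1, a splicing regulator, fell by 1.81 ± 0.37 (adjusted p = 0.00258), and Erdr1 fell by 1.83 ± 0.30 (adjusted p = 0.000195). Enc1 and Rbfox1 were not called in a fit of the Stellate/Basket arrays alone. Adamts4, a protease that cuts proteoglycans and a member of the matrix list, fell by 1.75 ± 0.33 (adjusted p = 0.00129), and was the 1 called gene of 13.

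With both marker means as covariates, 0 of the 8 higher genes of the neuronal lists were still called by limma, and 15 of the 17 higher genes still called stood in no list. Synpr, Rasgrf1 and Eps8 are taken from those 15 after their values were seen. Synpr, synaptoporin of synaptic vesicles, was at 9.57, 9.60 and 9.19 in the P21 arrays, against 6.99, 7.46, 7.06 and 7.57 in the P14 arrays, a difference of 2.19 ± 0.31 (adjusted p = 3.24e-05). Rasgrf1, an exchange factor that activates Ras, was at 12.07, 12.45 and 12.28 in the P21 arrays, against 10.46, 10.67, 10.25 and 10.47 in the P14 arrays, a difference of 1.80 ± 0.40 (adjusted p = 0.00664). Eps8, which caps actin filaments, was at 9.98, 10.20 and 9.36 in the P21 arrays, against 7.80, 7.87, 8.61 and 8.20 in the P14 arrays, a difference of 1.73 ± 0.20 (adjusted p = 1.43e-06). With both covariates their differences were 2.51 for Synpr, 3.27 for Rasgrf1 and 1.58 for Eps8. In Purkinje cells at P21 Synpr averaged 4.53 and Eps8 5.74, near the bottom of the scale, and Rasgrf1 averaged 7.45. Among the 25 lower genes still called in that fit, Dcx (-2.84), Gap43 (-2.21), Glra2 (-2.44), Klf7 (-1.95), Ndrg1 (-4.61) and Ly6d (-2.70) kept differences of at least 1.9 in size.

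**Figure D4:**
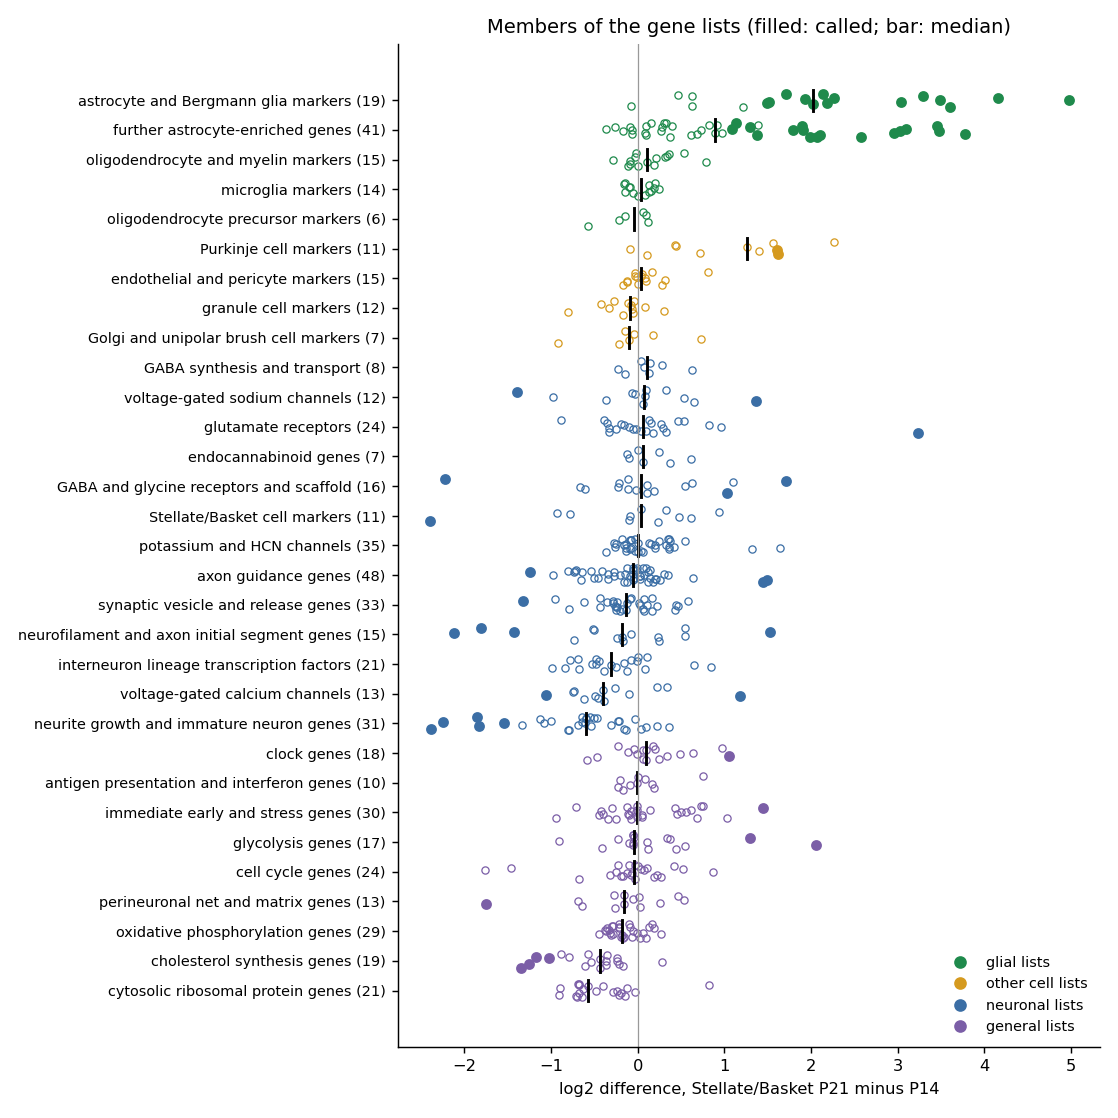
Log2 difference, Stellate/Basket P21 minus P14, of every tested member of 31 gene lists, ordered by class and median. Filled points were called, open points were not, bars are medians, and the number tested is in brackets. The called members of the 2 astrocyte lists lie between about 1 and 5, and those of the neurite growth list between -2.38 and -1.55.

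In the general lists 2.21% of 181 genes were higher and 2.76% lower, beside 1.05% and 0.715% of all genes. Of 19 cholesterol synthesis genes 4 were lower and 0 higher, with a median of -0.43, and 18 of the 19 differences were below 0. Dhcr7, which makes the last step to cholesterol, was at 7.66, 7.36 and 7.07 in the P21 arrays, against 8.69, 8.63, 8.97 and 8.19 in the P14 arrays, a difference of -1.26 ± 0.21 (adjusted p = 0.000288). Nsdhl (-1.03, adjusted p = 0.0137), Fdft1, squalene synthase (-1.34, adjusted p = 0.0449), and Sqle, squalene epoxidase (-1.17, adjusted p = 0.0488), were closer to the threshold. Fdft1 lost its call whichever of the 7 arrays was left out (adjusted p from 0.0543 to 0.234). Sqle was lost without every array but P21 replicate 1 (adjusted p from 0.0658 to 0.311), and Nsdhl without P21 replicate 1 (-0.92), P14 replicate 2 (-0.91) or P14 replicate 4 (-0.99).

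Of 17 glycolysis genes 2 were higher, beside 1.05% of all genes. Aldoc, the brain aldolase of astrocytes and many Purkinje cells, was at 11.87, 12.11 and 12.99 in the P21 arrays, against 10.14, 10.87, 9.99 and 10.05 in the P14 arrays, a difference of 2.06 ± 0.32 (adjusted p = 8.58e-05), and Hk2, a hexokinase, rose by 1.30 ± 0.29 (adjusted p = 0.00661). None of 29 oxidative phosphorylation genes (median -0.19), 21 cytosolic ribosomal protein genes (median -0.57) or 24 cell cycle genes (median -0.05) was called by limma, and 4, 12 and 3 of them had an unadjusted p under 0.05. Yet 20 of the 21 ribosomal protein genes had differences below 0, beside 9074 of all 17478 genes. In 12 of the 21 every P14 array stood above every P21 array, against 11.3% of all genes. Rpl19, for one, was at 11.18, 11.36 and 11.37 in the P21 arrays, against 12.06, 12.06, 12.32 and 12.35 in the P14 arrays, a difference of -0.90 ± 0.19 (adjusted p = 0.00354), past the p threshold and short of the size limit. Among clock genes Bhlhe40, a repressor, rose by 1.05 ± 0.21 (adjusted p = 0.00206) and was under 1 without P21 replicate 2 (0.76), P14 replicate 3 (0.92) or P14 replicate 4 (0.98). Among stress genes Dusp1, a phosphatase, rose by 1.44 ± 0.42 (adjusted p = 0.045), and its call was lost whichever of the 7 arrays was left out (adjusted p from 0.0722 to 0.152).

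Purkinje cells over the same ages gave fewer calls. In them 11 genes were called for P21 minus P14, 7 higher and 4 lower (0.0629%), with 4 and 3 arrays. Of these, 0 were called in the same direction in Stellate/Basket cells. There 1.05% of all genes were called higher and 0.715% lower, so 0 of 11 is near that share. The test of the difference between the 2 changes, Stellate/Basket minus Purkinje, called 82 genes (0.469%), 47 higher and 35 lower. Xist averaged 10.15 in Purkinje cells at P21 and 6.53 at P14, and with Xist as a covariate the test called 36 genes as higher and 33 as lower. Id4 had the largest difference: it rose by 4.66 in Stellate/Basket cells and was at -0.83 in Purkinje cells (difference of changes 5.49 ± 0.71, adjusted p = 3.31e-05). Dcx fell in Stellate/Basket cells (-2.38) and was at 0.51 in Purkinje cells, where it is low at both ages (difference -2.89 ± 0.41, adjusted p = 9.19e-05). For Gap43 the changes were -1.84 in Stellate/Basket cells and 0.28 in Purkinje cells (difference -2.12 ± 0.26, adjusted p = 1.35e-05).

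Gria1 and Kcnj10 likewise changed more in Stellate/Basket cells. Kcnj10 was at 3.45 in Stellate/Basket cells against 0.37 in Purkinje cells (difference 3.08 ± 0.59, adjusted p = 0.00588), and Gria1 at 3.23 against 0.42 (difference 2.81 ± 0.56, adjusted p = 0.00854). The difference for Gja1 was 2.63 ± 1.45, adjusted p = 0.629, with a change of 2.34 in Purkinje cells that was not called. Apoe (2.62 ± 0.93, adjusted p = 0.275) and Mt1 (2.83 ± 0.71, adjusted p = 0.0605) were not called in this test either. Gpr176, an orphan receptor, ran the other way: it was at 0.73 in Stellate/Basket cells and rose by 4.20 in Purkinje cells (difference -3.47 ± 0.53, adjusted p = 0.000316).

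**Figure D5:**
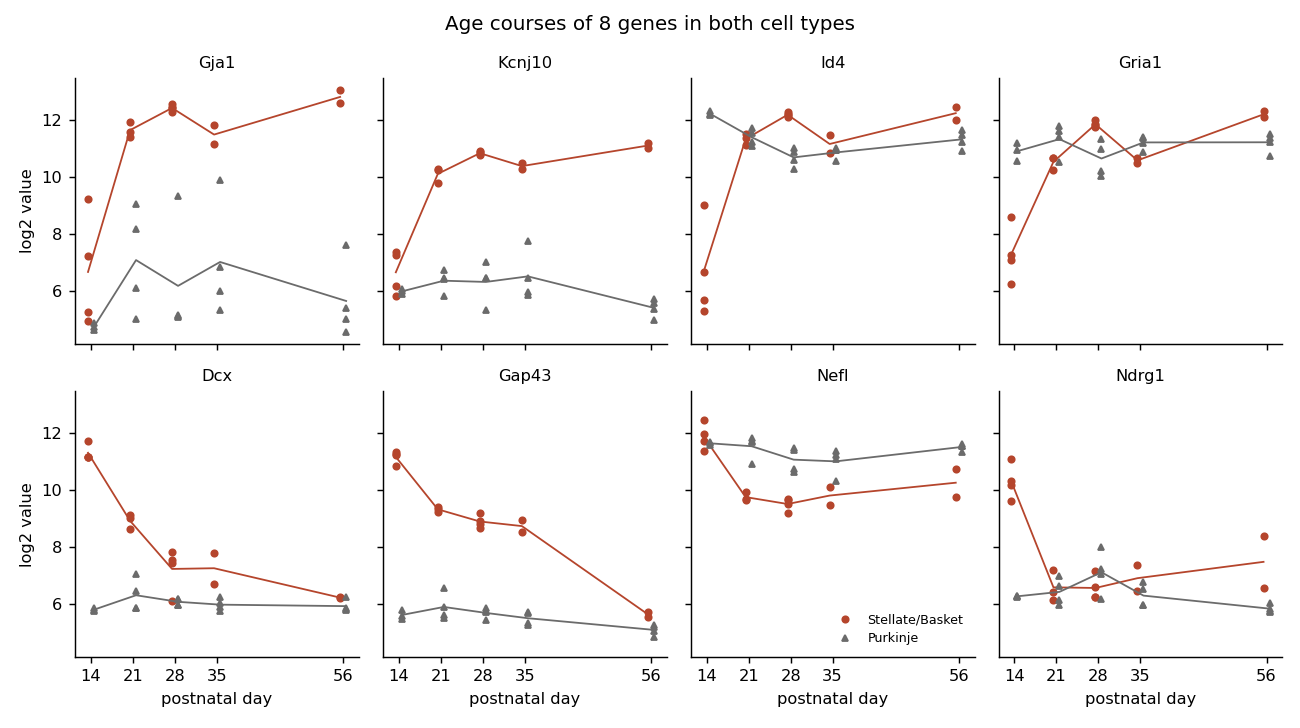
Log2 values of 8 genes by postnatal day from P14 to P56 in Stellate/Basket cells (circles) and Purkinje cells (triangles). Points are arrays, shifted slightly apart, and lines join group means (2 to 4 arrays each). Gja1, Kcnj10, Id4 and Gria1 stay high in Stellate/Basket cells after P21, Dcx falls further to P28, and Ndrg1 lies below its P14 arrays at every later age.

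The step that followed gives the place of P21 in the course. From P21 to P28, 119 genes were higher (0.681%) and 57 lower (0.326%) in Stellate/Basket cells, in a comparison that shares the P21 arrays. Dcx fell further by 1.69 (adjusted p = 0.000746), and Glra2 fell by 1.71 (adjusted p = 0.000633). Gap43, at -0.43 (adjusted p = 0.308), Nefl, at -0.24 (adjusted p = 0.898), and Ndrg1, at -0.02 (adjusted p = 0.999), were not called in this step. Gja1, at 0.78 (adjusted p = 0.913), Id4, at 0.85 (adjusted p = 0.577), and Mt1, at -0.01 (adjusted p = 1), were not called either. Sema6d rose again by 1.46 (adjusted p = 0.00157), while Erdr1, Nlgn1 and Isoc1, lower at P21 than at P14, were higher at P28 than at P21 by 1.46 (adjusted p = 0.00536), 1.17 (adjusted p = 0.0276) and 1.26 (adjusted p = 0.04). The Stellate/Basket arrays at P56 are not a clean end of this course: the mean of the 11 Stellate/Basket markers was 10.89 at P14, 10.74 at P21, 10.58 at P28 and 10.28 at P35, and at P56 it was 7.11, and Kit averaged 6.11 at P56.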

How the data were processed

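Per the submitters' processing notes, R 2.9.1 and GCRMA were used, with roles and order not given in the sources used here. The authors deposited normalized log2 values, which ran between 3.94 and 14.6 over 42 columns; medians of the 7 Stellate/Basket arrays were 6.05 to 6.10. Precision is limited by how many arrays there are.

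Stellate/Basket P35 replicate 3 and P56 replicate 2 equal the mean of their group's other columns within 1e-08 and were left out, leaving 40 arrays. Of 45101 probe sets, the 34958 with 1 gene symbol were used (932 had several, 9211 none). The probe set that averaged highest stood for its gene, and 17478 of 18194 genes exceeded a log2 value of 5 in 3 arrays or more. Ahctf1, Kantr, Ppp2r5c, Kdm5b, Mga and Prpf39 were called, but another of their probe sets went at least 0.5 the other way.

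limma 3.58.1 (R 4.3.3) fitted a mean for each of 12 groups of cell type and age, with Benjamini-Hochberg adjustment over 17478 genes. P-values reflect only the spread among these samples, which may be technical. On simulated data with 200 genes changed, 97%, 94% and 100% of changes of 1.5, 2 and 3 log2 units were recovered for P21 minus P14, with 3 false calls. For the difference between the cell types 79.1%, 88.1% and 98.5% were recovered, with 6 false calls. The simulated noise was independent, with 1 SD per gene in all groups. It holds no shifts shared by the genes of an array, so the real number of false calls may differ.

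The members and lists were chosen with earlier results of these data known. The 32 lists hold 660 genes, of which 596 were tested; the rest were not analysed here. Named were the 15 largest called differences per direction with ages apart, 12 per direction from neuronal lists, up to 4 called genes per list (the 2 largest where fewer than 2 were called), checks of the sort, 8 per direction for the difference between cell types, and 5 per direction outside the lists with a mean of at least 9. Clone names (3 higher, 4 lower) were counted and not named. Other genes, such as Slc1a3, Glul, S100b, Hopx, Sparcl1 and list members that were not called, were chosen after their values were seen.

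Same-numbered arrays of the ages deviated with correlations of -0.10, -0.04 and -0.15, against -0.07 to 0.17 for differently numbered arrays. The numbers thus gave no sign of pairing, but so few values cannot decide it. The main fit used no pairing. Alternatives covered the filter, probe set summary, variance model, array weights, replicate block, centring, quantile normalization, thresholds, arrays in the fit, covariates and each array left out.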

Additional observations from a re-analysis of the deposited data

Results flagged for a closer look

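In 131 groups of 4 P14 values, the highest or lowest array lay apart from the other 3 in 9, and chance gives about 1 in 20. The arrays were P14 replicate 4 for Aldh1a1 (6.696), Mgst1 (5.602) and Gpr176 (8.602), replicate 2 for Aldoc (10.87), Ncan (8.116) and Pdgfra (6.036), replicate 1 for Cacnb4 (9.163) and for the mean of the voltage-gated sodium channels (8.788), and replicate 3 for Dcx (11.74). Of these, Aldh1a1, Mgst1, Aldoc, Cacnb4 and Dcx were called between the ages, and they were also called without each array in turn.

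The change from P14 to P21 differed between Stellate/Basket and Purkinje cells in 82 genes by limma's test of the difference. It was more positive in Stellate/Basket cells for Id4 (5.49), Kcnj10 (3.08), Gpr37l1 (3.03), Clmn (2.97), Mgst1 (2.94), Itih3 (2.84), Gria1 (2.81) and the linker histone gene H1f2 (2.76). It was more negative for Ndrg1 (-3.86), Gpr176 (-3.47), Dcx (-2.89), Ly6d (-2.77), Erdr1 (-2.41), the glycosyltransferase gene B3galt5 (-2.40), Klf7 (-2.32) and Glra2 (-2.30). For Gpr176 and B3galt5 the call came from Purkinje cells, where they changed by 4.20 and 2.05, against 0.73 and -0.36 in Stellate/Basket cells, neither of which was called. Clmn, a membrane protein gene, was at 11.48 in Purkinje cells at P21 and at 8.51, 8.73 and 9.75 in Stellate/Basket cells at P21, against 7.69, 6.61, 4.80 and 5.35 at P14 in the order of replicates. The order of the 4 P14 arrays was the same for the Purkinje marker mean (9.32, 9.12, 7.97 and 8.41).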

How the results depend on the processing

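Of the 61 called genes named by the rule, 43 were called without each of the 7 Stellate/Basket arrays in turn, and 8 under every alternative run: Adamts4, Efhd2, Erdr1, Gap43, Glra2, Klf7, Ly6d and Ndrg1. With a replicate block, 181 genes were higher and 124 lower, and the named calls of Pcp2 and Sqle were lost. The causes of the shifts below were not tested, other than that a stricter threshold or fewer arrays leave fewer calls. With the mean of probe sets, 118 genes were higher and 71 lower at P21, with 5 called for the Purkinje step, 92 for P28 minus P21, 4 listed neuronal genes higher and an astrocyte marker median of 1.52. Array weights gave 191 higher and 223 lower genes for the difference between the cell types and 62 for the Purkinje step, and their estimation stopped before it converged. At an adjusted p under 0.01, 75 genes were lower, with 20 higher and 16 lower for the difference, 5 for the Purkinje step and 95 for P28 minus P21. At a difference of at least 1.5, 92 were higher and 33 lower, with 5 for the Purkinje step, 57 for P28 minus P21, and 3 neuronal genes higher and 9 lower. Fitted on the P14 and P21 arrays alone, 5 neuronal genes were higher and 11 of the 61 named calls were lost. These were Bcl11a, Bhlhe40, Clmn, Ephb1, Gdf10, Gng13, Nefm, Pcp2, Scn4b, Sqle and Unc5d. On Stellate/Basket arrays alone, 116 genes were higher and 68 lower, with 66 for P28 minus P21 and 2 neuronal genes higher. That fit lost 20 of the 61 named calls. They were Basp1, Bcl11a, Bhlhe40, Cacna1e, Cacnb4, Enc1, Gabra4, Gabrg1, Gdf10, Gng13, Nefm, Nrcam, Nsdhl, Nxph1, Pcp2, Rbfox1, Scn4b, Sqle, Stx1a and Unc5d. With all 42 columns, 59 genes were lower for the difference.

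The astrocyte covariate gave 60 lower genes for the difference, 7 for the Purkinje step and 2 glial genes higher. It also gave 3 neuronal genes higher, 0 of them among the 8 of the main fit. Its median was 0.29 for the astrocyte markers, which make up the covariate, and -0.86 for neurite growth. Under this covariate Apoe (-0.08), Ednrb (-0.15), Gdf10 (-1.32), Gja1 (-1.31), Mt2 (-0.06), Plpp3 (-1.25) and Timp4 (-2.67) reversed. The Purkinje covariate gave 3 neuronal genes higher and a neurite growth median of -0.69. Both together gave 35 higher and 63 lower genes, 17 higher for the difference, 95 for P28 minus P21, 1 glial and 0 neuronal genes higher, and medians of 0.23 for astrocyte markers and -0.92 for neurite growth. Under both, Apoe (-1.16), Gdf10 (-0.35), Gja1 (-1.26), Hk2 (-0.20), Mt2 (-0.42), Pcp2 (-0.30), Plpp3 (-0.96) and Timp4 (-2.86) reversed. Of the genes reversed in these fits, Apoe, Gdf10, Gja1, Timp4 and Pcp2 are part of a covariate.

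Leaving out 1 Stellate/Basket array gave 153 to 189 higher and 82 to 138 lower genes, the lowest of both without P21 replicate 3. The difference between the cell types then had 33 to 50 higher and 26 to 38 lower genes, the Purkinje step 8 to 9 and P28 minus P21 127 to 187. Listed glial genes higher ran from 28 to 33, neuronal ones higher from 5 (without P21 replicate 3 or P14 replicate 2) to 9, and lower from 13 to 16. The fits on fewer groups could not be run for the comparisons whose arrays they leave out.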
